A study of Mus musculus with 8 samples.

Results

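Coenzyme Q synthesis was followed in skeletal muscle through 10 genes chosen by name, *Pdss1*, *Pdss2*, *Coq2*, *Coq3*, *Coq4*, *Coq5*, *Coq6*, *Coq7*, *Coq9* and *Coq10a*, among the 14012 genes of the expression table. RNA of the quadriceps femoris (QF), a large thigh muscle, had been sequenced from 4 *Grpel1*skm-/- mice and 4 control mice, one library per mouse. GRPEL1 is the nucleotide exchange factor of the mitochondrial HSP70 that pulls proteins into the matrix. In the knockout mice (*Grpel1* flox/flox carrying *HSA-Cre-ERT2*) a Cre recombinase made under the human skeletal actin promoter and switched on by tamoxifen, started at the age of 5 weeks, deletes the gene in muscle fibres. The other cells of the muscle keep it. The control mice, labelled WT, carry *Grpel1* flox/flox alleles. The study used male mice, and the labels list no treatment for either group. Neither the age of the mice when these muscles were taken nor whether these controls also received tamoxifen is stated for the libraries, so that an effect of tamoxifen itself cannot be told apart from that of the deletion.

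Coenzyme Q (ubiquinone) is the lipid that carries electrons within the inner mitochondrial membrane, from complexes I and II and several other dehydrogenases to complex III. It consists of a benzoquinone ring, derived from tyrosine, and a long isoprenoid tail. The tail is assembled from products of the mevalonate pathway, joined to the ring precursor, and the ring is then modified stepwise by enzymes that assemble into a complex on the matrix side of the inner membrane. Nearly all the proteins involved are encoded in the nucleus and imported into mitochondria, and muscle, with its high respiratory demand, is among the tissues affected by inherited coenzyme Q deficiency.

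Relative to the bulk of the transcriptome (TMM scaling), 6 of the 10 genes were lower in knockout muscle and none was higher at an adjusted p under 0.01, whereas on library totals alone 1 was lower and 4 were higher. With TMM the lower genes were *Coq9*, *Coq10a*, *Coq5*, *Pdss2*, *Coq7* and *Coq2*, with log2 fold changes (knockout minus control) from -0.90 to -0.43. *Coq3*, *Pdss1*, *Coq6* and *Coq4* did not pass. Over all genes 21.1% were lower and 23.6% were higher by the same test, so that the 6 genes stand beside a background of about 1 gene in 5. On library totals 6.23% of all genes were lower and 60.6% were higher. The median log2 fold change was -0.48 over the 10 genes and 0.065 over all genes. In whole muscle, fewer cells of a type and less RNA per cell cannot be told apart.

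Promoter sequences are shown for the pair of genes with the largest falls, *Coq9* and *Coq10a*. *Pdss1*, which did not pass the test and shares the ERR letters with *Coq10a*, is shown beside them. RefSeq promoters (GRCm38.p6) run from 250 bases before to 50 bases after a transcription start, and 9 of the 10 genes matched an entry, *Coq5* being the exception. They are printed 5′ to 3′ on the strand of the gene, with capitals marking matches on either strand to the letters AAGGTCA (ERR, the oestrogen-related receptors), CCGGAAG (ETS factors), GGGCGG (SP1) and AANATGGCG (YY1). *Coq9* lies at chr8:94838163-94838462 on the plus strand, *Coq10a* at chr10:128369988-128370287 on the minus strand and *Pdss1* at chr2:22895272-22895571 on the plus strand.
Coq9: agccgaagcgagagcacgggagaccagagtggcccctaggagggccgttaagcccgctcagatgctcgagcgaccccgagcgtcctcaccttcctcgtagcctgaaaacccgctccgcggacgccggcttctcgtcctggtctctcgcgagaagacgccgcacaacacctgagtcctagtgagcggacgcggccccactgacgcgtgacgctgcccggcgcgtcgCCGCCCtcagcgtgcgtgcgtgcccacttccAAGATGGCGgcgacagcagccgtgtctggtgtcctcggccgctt
Coq10a: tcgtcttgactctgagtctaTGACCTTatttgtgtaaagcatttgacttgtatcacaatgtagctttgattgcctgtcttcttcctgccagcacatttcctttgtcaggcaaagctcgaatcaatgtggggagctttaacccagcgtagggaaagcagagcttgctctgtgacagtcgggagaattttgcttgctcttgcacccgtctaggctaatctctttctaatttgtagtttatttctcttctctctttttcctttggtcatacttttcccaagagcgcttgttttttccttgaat
Pdss1: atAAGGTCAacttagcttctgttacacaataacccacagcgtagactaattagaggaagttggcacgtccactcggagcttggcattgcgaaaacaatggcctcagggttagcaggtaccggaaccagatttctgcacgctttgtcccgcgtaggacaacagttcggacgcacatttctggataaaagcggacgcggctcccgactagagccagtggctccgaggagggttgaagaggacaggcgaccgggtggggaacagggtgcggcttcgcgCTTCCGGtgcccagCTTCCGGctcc

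The ERR letters stood at base -230 of *Coq10a* and at base -248 of *Pdss1*, counted from the start, and in no other of the 9 promoters, against 3.16% of the 10676 promoters of genes in the table. YY1 letters occurred in *Coq9* and *Pdss2*, against 5.04% of all promoters. The ETS letters occurred in *Pdss1*, *Pdss2* and *Coq6* (17.2% of all), and the SP1 letters in *Pdss2*, *Coq6* and *Coq9* (63.5% of all). GCGCANGC (NRF-1) was found in *Coq2* alone, against 19.4%. TCACNCCAC (SREBP, 1.08%) and CACGTG (E-box, 10.2%) were found in *Coq4* alone, whose listed transcription start is 770 bases from the start of the gene in the table. TGATGNAA (C/EBP-ATF, 2.19%) was found in none. The promoters of *Coq3* and *Coq7* held no match to any of these motifs. Matches to different motifs did not overlap in these promoters. A match to letters is a description of the sequence and says nothing of binding in these muscles.

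The libraries held 16017565 to 18813042 counts in control muscle and 16424608 to 20361144 in knockout muscle. The 20 most abundant genes took 36.4 to 39.4% of the counts in control muscle but 19.02 to 22.8% in knockout muscle. The TMM factors, which allow for such a difference in composition, were 0.75 to 0.84 and 1.19 to 1.33. The targeted gene, *Grpel1*, had 69.6, 71.2, 68.8 and 64.1 CPM (counts scaled to library size) in controls 1 to 4 and 69.1, 71.9, 60.3 and 59.9 CPM in knockouts 1 to 4. Its log2 fold change was -0.066 (SE 0.078, adjusted p = 0.49). Counts over the whole gene give no check of the labels, on which every direction given here rests. The summed muscle fibre markers were at 194245 to 246648 CPM in control muscle and 62043 to 89845 CPM in knockout muscle, so the defining genes of the tissue were abundant in all 8 libraries.

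The tail is made by a prenyl diphosphate synthase of 2 kinds of subunit, of which 1 passed the test. *Pdss2*, one of them (chromosome 10, 43221486 to 43464882), was at 26.7, 26, 28 and 22.7 CPM in controls 1 to 4. Knockouts 1 to 4 had 18.7, 14, 19.8 and 17.4 CPM. All 4 knockouts were below all 4 controls, with knockout 2 the lowest. The means were 25.8 ± 2.25 against 17.5 ± 2.5 CPM (SD, n = 4 each), a fall to 67.8% of control (log2 fold change -0.56, SE 0.11, adjusted p = 0.0020). *Pdss1*, its partner subunit (chromosome 2, 22895522 to 22940261), had 8.56, 8.9, 8.66 and 7.56 CPM in control muscle and 8.59, 9.48, 7.76 and 7.23 CPM in knockout muscle. Its groups overlapped throughout, and the 95% interval of its log2 fold change was -0.29 to 0.23 (adjusted p = 0.85). The span of *Pdss1* shares 273 bases with *Abi1* on the opposite strand, and whether the counting used strand is not stated in the sources used here. In the GENCODE annotation the span of *Pdss2* shares 3879 bases with *Gm47857* and 1232 bases with *Gm47856* on the same strand, among other overlaps. Their part in its counts was not tested.

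*Coq2* encodes the prenyltransferase of the inner membrane that joins the tail to 4-hydroxybenzoate, the ring precursor (chromosome 5, 100654726 to 100674256). Its level was 70.04, 72.1, 81.2 and 64.7 CPM in controls 1 to 4 and 56.5, 45.4, 57.9 and 53.7 CPM in knockouts 1 to 4. The groups did not overlap, with control 4 and knockout 3 nearest to each other. The mean went from 72 ± 6.9 to 53.4 ± 5.61 CPM (SD, n = 4 each), or 74.2% of control, with a log2 fold change of -0.43 (SE 0.10, adjusted p = 0.0033). This was the smallest fall that passed the test, and it no longer passed with the mean adipocyte marker level as a covariate (-0.34, adjusted p = 0.012). An antisense gene, *Gm15777*, overlaps *Coq2* in the GENCODE annotation.

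The ring is modified by *Coq3*, *Coq5*, *Coq6* and *Coq7* on the way to ubiquinone. *Coq5*, the C-methyltransferase of the ring (chromosome 5, 115279702 to 115296972), had 109.7, 120.3, 114 and 99.4 CPM in controls 1 to 4. In knockouts 1 to 4 it had 77, 73, 77.2 and 70.1 CPM. The lowest control was well above the highest knockout. The mean fell from 111 ± 8.85 to 74.3 ± 3.43 CPM (SD, n = 4 each), to 67% of control (log2 fold change -0.58, SE 0.074, adjusted p = 9.6e-05).

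*Coq7* encodes the di-iron hydroxylase that adds the last hydroxyl group (chromosome 7, 118509659 to 118533356). Controls 1 to 4 had 43.6, 52.1, 44.4 and 45.1 CPM and knockouts 1 to 4 had 36.2, 27.5, 31 and 33.6 CPM. The groups did not overlap, and control 2 stood above the other 3 controls. From 46.3 ± 3.92 CPM the mean fell to 32.1 ± 3.71 CPM (SD, n = 4 each), 69.3% of control, with a log2 fold change of -0.53 (SE 0.10, adjusted p = 9.3e-04).

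The O-methyltransferase gene *Coq3*, whose product acts at both O-methylation steps (chromosome 4, 21879675 to 21912126), had 33.8, 34.3, 34.6 and 24.8 CPM in controls 1 to 4 and 27.8, 25.1, 26.9 and 26.1 CPM in knockouts 1 to 4. Control 4 was below all 4 knockouts, while the other 3 controls were above them. The log2 fold change was -0.27 (SE 0.11, 95% interval -0.50 to -0.029, adjusted p = 0.053), which does not pass. Without control 4 it was -0.37 with an adjusted p of 0.0012, so that 1 library decides the call of *Coq3*.

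*Coq6* encodes the flavin-dependent monooxygenase of the C5 hydroxylation, which takes its electrons from ferredoxin (chromosome 12, 84361968 to 84373796). Its level was 25.3, 26.3, 22.3 and 23.9 CPM in control muscle and 27.4, 24.8, 21.8 and 21.8 CPM in knockout muscle. The groups overlapped, with the highest value in knockout 1. The interval of its log2 fold change, -0.24 to 0.18, lay above the fitted falls of the 6 genes that passed (adjusted p = 0.78).

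*Coq4* and *Coq9* encode further proteins of the complex, and had the highest and the lowest fitted change of the set. *Coq9*, a lipid-binding protein that presents substrates to COQ7 (chromosome 8, 94838417 to 94854895), had 424, 419, 429 and 379.6 CPM in controls 1 to 4. It had 232, 217, 229.6 and 207 CPM in knockouts 1 to 4. The groups lay far apart with little spread within either. The mean fell from 413 ± 22.5 to 221 ± 11.4 CPM (SD, n = 4 each), to 53.6% of control, with a log2 fold change of -0.90 (SE 0.073, adjusted p = 4.6e-06). *Coq4*, which the complex needs to assemble (chromosome 2, 29788263 to 29797743), had 7.76, 8.9, 8.44 and 6.62 CPM in controls 1 to 4 and 7.92, 7.42, 10.2 and 7.99 CPM in knockouts 1 to 4. The groups overlapped, and the highest value was that of knockout 3. Its log2 fold change was 0.083 (95% interval -0.23 to 0.39, adjusted p = 0.63). In the GENCODE annotation *Coq4* shares 240 bases with *Trub2* on the opposite strand.

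*Coq10a* encodes a lipid-binding chaperone of finished coenzyme Q that is needed for its use in respiration rather than for making it (chromosome 10, 128363097 to 128370037). Controls 1 to 4 had 319, 367, 366 and 342 CPM, and knockouts 1 to 4 had 189, 145, 224 and 209.8 CPM. No knockout reached a control, and knockout 2 was clearly below the other 3 knockouts. The mean fell from 348 ± 22.8 to 192 ± 34.6 CPM (SD, n = 4 each), to 55.1% of control (log2 fold change -0.86, SE 0.13, adjusted p = 2.4e-04). In all, the groups did not overlap, with the knockouts lower, in 6 of the 10 genes, against 24.4% of all genes. For each of these 6 the exact two-sided permutation test gave p = 0.029, the smallest p that 4 against 4 allow. That p follows from the lack of overlap and adds no further support.

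**Figure D1:**
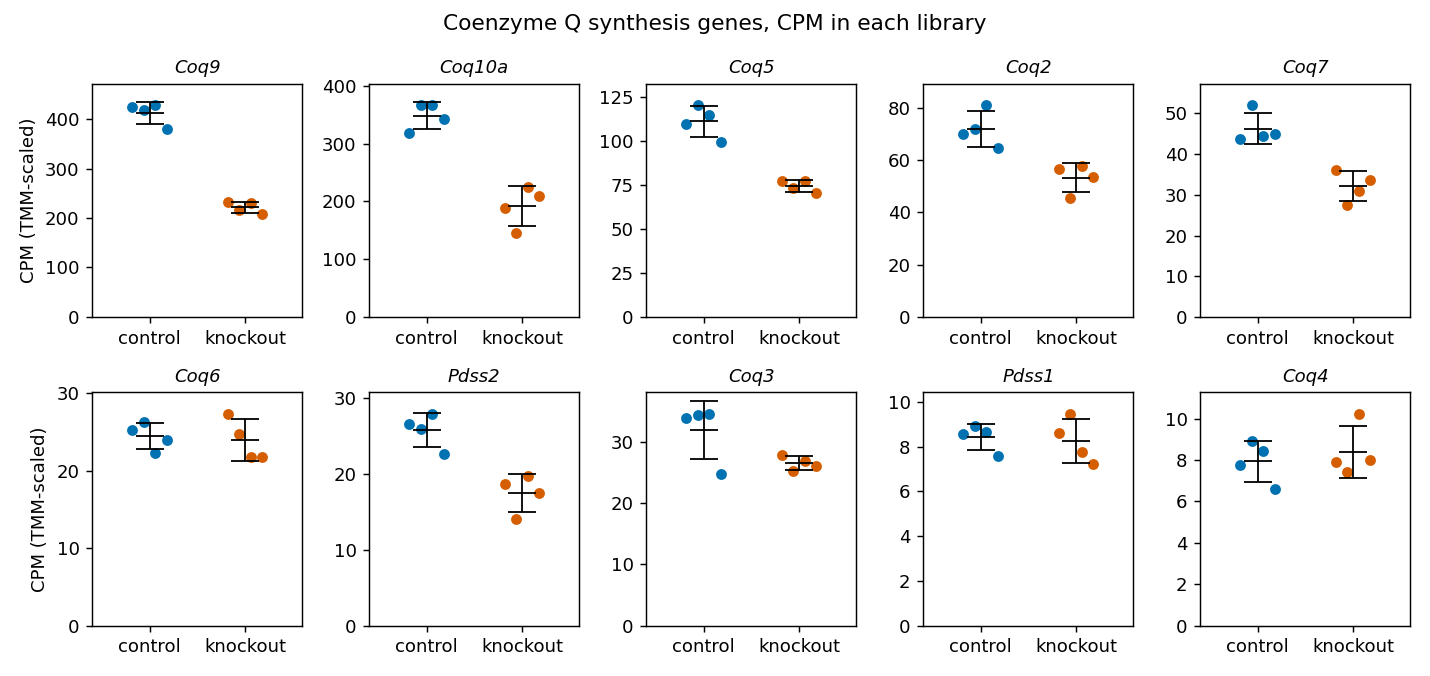
CPM on TMM-scaled libraries (vertical axis, from 0) of the 10 coenzyme Q synthesis genes in 4 control (blue) and 4 knockout (orange) libraries, with the mean and SD as bars. The groups are apart for *Coq9*, *Coq10a*, *Coq5*, *Coq2*, *Coq7* and *Pdss2* and overlap for *Coq6*, *Coq3*, *Pdss1* and *Coq4*.

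Some libraries were low or high in many of the genes. Control 4 had the lowest control value of 7 of the 10 genes, and control 2 had the highest of 6. Among the knockouts, knockout 2 had the lowest value of 6 genes and knockout 3 the highest of 5. The spread was narrow for *Coq9*, whose highest control was 1.13 times its lowest and whose highest knockout was 1.12 times its lowest. For *Coq10a* the same ratio was 1.15 in control muscle and 1.55 in knockout muscle, the widest of the 10 genes in that group.

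Levels can be set side by side between genes only per length of exon. Per kilobase, *Coq9* was the highest in control muscle at 244 ± 13.3 CPM per kb, followed by *Coq10a* at 139 ± 9.1 and *Coq5* at 55.4 ± 4.42 CPM per kb (SD, n = 4). *Coq2*, *Coq7* and *Coq6* followed at 42.1 ± 4.03, 30.8 ± 2.61 and 15.3 ± 1.08 CPM per kb. *Pdss2* (12.7 ± 1.11) and *Coq3* (12.2 ± 1.82) came next with values that overlapped, and *Pdss1* (5.14 ± 0.361) and *Coq4* (3.99 ± 0.501 CPM per kb) were the lowest. Within a control library, the highest of the genes was on average 61.6 times the lowest per length.

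In knockout muscle the order was the same except that *Coq3* (10.1 ± 0.436 CPM per kb) came before *Pdss2* (8.61 ± 1.23 CPM per kb), again with overlap. *Coq9* was at 131 ± 6.74 and *Coq4* at 4.22 ± 0.632 CPM per kb, the latter overlapping *Pdss1* (5.05 ± 0.6003 CPM per kb). The highest was then 31.9 times the lowest. *Coq9* and *Coq10a* together made up 68.3% ± 0.656 of the summed level per length of the 10 genes in control muscle and 61.0% ± 1.08 in knockout muscle (SD, n = 4 each), a share that does not depend on how libraries are scaled. The 5 genes with the highest control levels were all among the 6 that fell on the TMM scale, and of the other 5 *Pdss2* passed. Without control 4 *Coq3* passed as well, and whether the change differed with level was not tested. On library totals only *Coq9* and *Coq10a* of these 6 kept a negative sign. *Pdss1* and *Coq4* had the fewest counts, 96 to 248 per library, yet the intervals of their log2 fold changes did not reach -0.43, the smallest fall that passed.

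**Figure D2:**
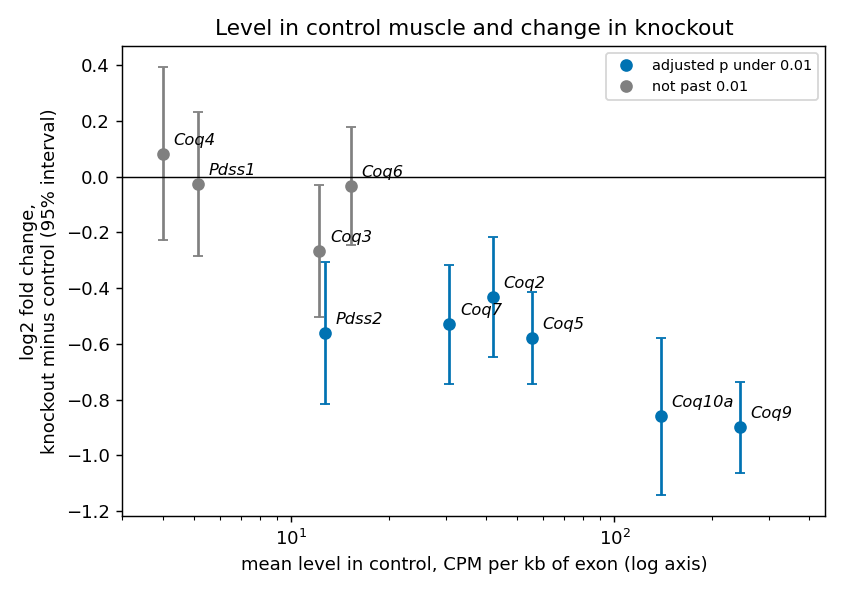
Log2 fold change with its 95% interval on the TMM scale (vertical axis) against the mean control level in CPM per kb of exon (horizontal, log axis) for the 10 genes. The 5 genes above 20 CPM per kb all fell (blue), whereas of the 5 below it *Pdss2* passed, and *Coq3* did so without control 4; on library totals alone only *Coq9* and *Coq10a* of the blue genes stay below 0.

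The calls depended on the scale. With library totals alone the median over all genes (log2 fold change) moved from 0.065 to 0.73, and 873 genes were lower and 8498 higher, against 2962 and 3303 with TMM. *Coq9* was then the only one of the 10 genes still called lower (-0.23), *Coq10a* was at -0.20, and *Pdss1*, *Coq3*, *Coq4* and *Coq6* were called higher at 0.41 to 0.75. Relative to the median of all genes on that same scale, *Coq9*, *Coq10a*, *Coq5*, *Pdss2*, *Coq7* and *Coq2* were at -0.96, -0.93, -0.64, -0.63, -0.60 and -0.50, and *Coq4* was at 0.014. A change of scaling shifts all 10 values by nearly the same amount, so their order carries no information on stability.

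A second yardstick is the rest of the respiratory machinery. The nuclear genes of oxidative phosphorylation subunits fell together, 63 of 78 lower and 3 higher on the TMM scale, with a median log2 fold change of -0.57. On library totals 6 of the 78 were lower and 24 higher. The shares of all genes were 21.1% lower and 23.6% higher with TMM, and 6.23% and 60.6% on library totals. When libraries were scaled so that the mean of these genes was equal, *Coq5*, *Pdss2*, *Coq7* and *Coq2* lay between -0.066 and 0.076 and none passed. *Coq9* remained lower at -0.39 (SE 0.080, adjusted p = 0.0012), beside 7.84% of all genes. *Coq10a* was at -0.35 (adjusted p = 0.021), which does not pass 0.01, though its groups did not overlap. *Coq4* (0.60, adjusted p = 0.0030), *Pdss1* (0.49, adjusted p = 0.0065) and *Coq6* (0.47, adjusted p = 0.0013) were higher than the respiratory genes, beside 51.1% of all genes. Ratios between the genes themselves, which need no scaling, did not overlap between the groups in 28 of 45 pairs, where 51.6% of all pairs of genes in the table did not overlap.

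**Figure D3:**
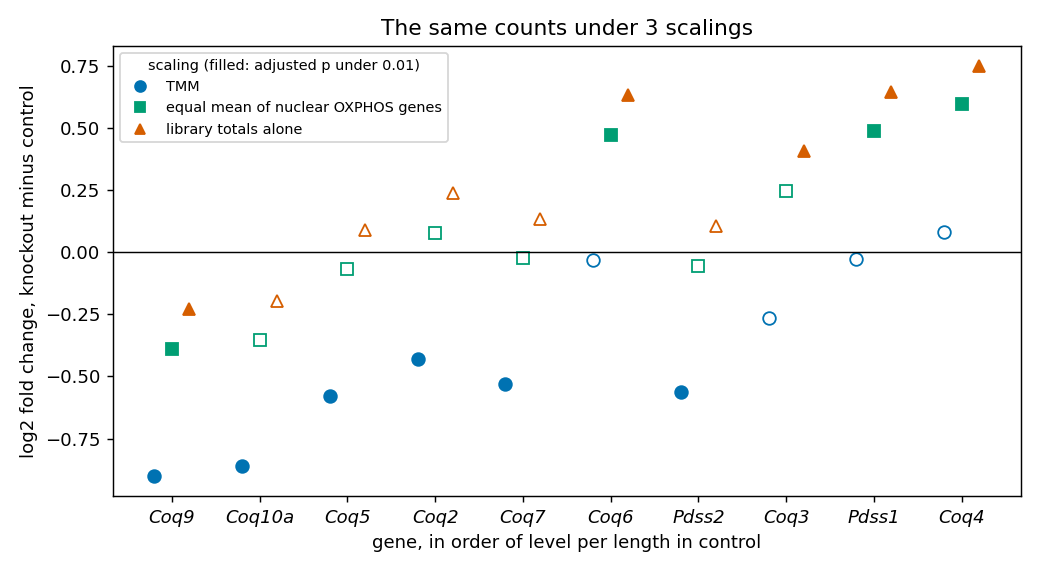
Log2 fold change (knockout minus control, vertical axis) of the 10 genes, in order of control level per length, under TMM (circles), equal mean of the nuclear oxidative phosphorylation genes (squares) and library totals alone (triangles). Filled symbols passed an adjusted p of 0.01, and *Coq9* is the only gene filled and below 0 under all 3.

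A few genes close to the set, which were not members, show how paralogues behaved. *Coq10b*, the paralogue of *Coq10a*, had 13.5, 15.5, 14.5 and 14.2 CPM in control muscle and 12.2, 15, 11.1 and 16 CPM in knockout muscle. Its groups overlapped, and its log2 fold change was -0.089 (95% interval -0.36 to 0.19, adjusted p = 0.55). Per length, *Coq10a* was 16.7 ± 0.545 times *Coq10b* in control muscle and 10.1 ± 3.03 times in knockout muscle (SD, n = 4 each). The ratios did not overlap (exact two-sided permutation p = 0.029), as in 51.6% of all pairs of genes.

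The atypical kinases COQ8A and COQ8B support the complex, and in the table their genes carry the older names *Adck3* and *Adck4*. *Coq8a*, the muscle-rich form, had 484, 697, 574 and 640.3 CPM in control muscle and 751, 597, 977 and 801 CPM in knockout muscle. These overlapped (log2 fold change 0.38, SE 0.16, adjusted p = 0.058), and *Coq8a* shares 365 bases with *Cdc42bpa* on the opposite strand. *Coq8b* had 4.2, 4.71, 3.44 and 5.04 CPM in control muscle and 16.1, 14.8, 16.3 and 18.1 CPM in knockout muscle. Every knockout was above every control, at a mean of 16.3 ± 1.36 against 4.35 ± 0.6996 CPM (log2 fold change 1.90, SE 0.13, adjusted p = 1.5e-06), the opposite direction to the 6 synthesis genes that fell on this scale. Its log2 fold change was positive and past the threshold in all 19 alternatives run for it, among which a correction for gene length was not. In the GENCODE annotation the span of *Coq8b* shares 8670 bases with *Gm15567* on the opposite strand and 5774 bases with *Gm44641* on the same strand, and their part in its counts was not tested. Even so *Coq8a* remained the more abundant, at 74.8 ± 12.4 times *Coq8b* per length in control muscle and 25.7 ± 4.62 times in knockout muscle (exact two-sided permutation p = 0.029). These ratios did not overlap either, as in 51.6% of all pairs of genes.

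**Figure D4:**
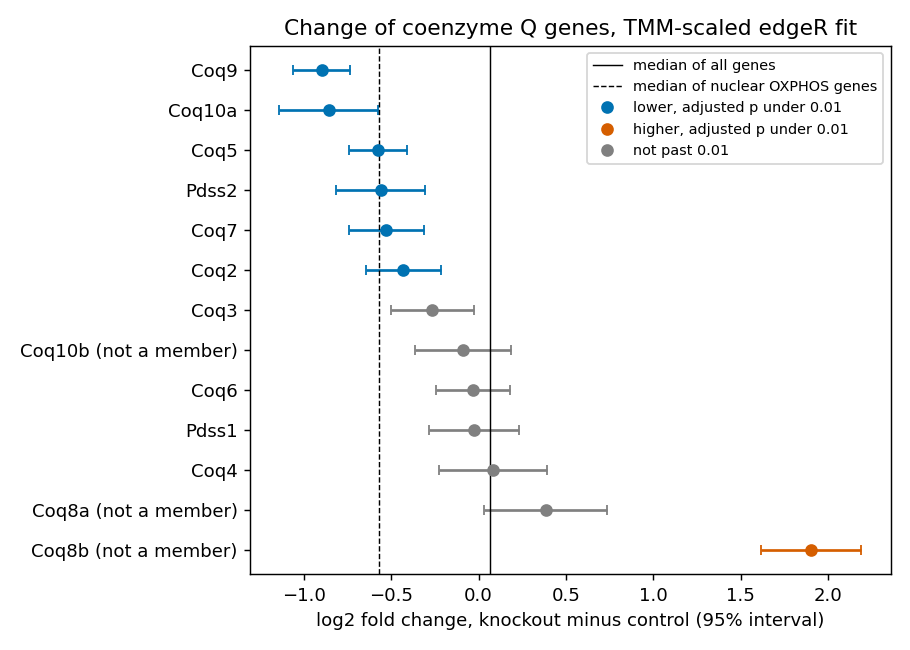
Log2 fold change with its 95% interval (horizontal axis, knockout minus control, TMM scale) of the 10 genes and of *Coq8a*, *Coq8b* and *Coq10b*, with the medians of all genes (0.065, solid line) and of the nuclear oxidative phosphorylation genes (-0.57, dashed). *Coq9* and *Coq10a* lie clearly left of the dashed line, *Coq5* (-0.58) marginally left of it and *Coq8b* far to the right. On library totals the medians of both lists and the points shift to the right together, and only *Coq9* and *Coq10a* of the 10 genes stay below 0.

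Of 10 other genes tied to coenzyme Q, 3 were lower and 2 were higher (median log2 fold change 0.11), while on library totals 1 was lower and 8 higher. Over all genes 21.1% were lower and 23.6% higher, and on library totals 6.23% and 60.6%. *Pptc7*, a matrix phosphatase that acts on coenzyme Q proteins, fell from 260.0 ± 21.5 to 92.1 ± 6.96 CPM (-1.50, adjusted p = 6.1e-07). *Fdx1*, a ferredoxin, had a log2 fold change of -0.77 (adjusted p = 4.2e-05), and *Stard7*, a lipid transfer protein with a part in coenzyme Q distribution, one of -0.34 (adjusted p = 0.0020). *Fdxr*, the reductase that feeds electrons to ferredoxins, rose by 0.77 on the log2 scale (adjusted p = 6.7e-04). The 3 related kinases outside this pathway (*Adck1*, *Adck2* and *Adck5*) did not pass, with a median of 0.15.

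Upstream, the mevalonate pathway that supplies the tail had no gene lower and 3 of 9 higher, with a median of 0.36. Of all genes 21.1% were lower and 23.6% higher. *Mvd*, which makes isopentenyl diphosphate, rose from 5.17 ± 0.731 to 19.2 ± 6.04 CPM (log2 fold change 1.89, adjusted p = 6.3e-05). *Ggps1*, which makes geranylgeranyl diphosphate, rose by 0.43 on the log2 scale (adjusted p = 0.0035). Among 8 genes of other branches from farnesyl diphosphate (the farnesyl list) 2 were lower and 3 higher (median 0.0070). Not all of them use farnesyl diphosphate itself, since *Sqle* and *Lss* act later in the sterol branch. The sterol genes *Sqle* (1.20) and *Lss* (1.05) and the dolichol gene *Dhdds* (0.51) rose, while *Cox10*, which farnesylates haem (-0.39), and *Nus1*, the partner of *Dhdds* (-0.31), fell. On library totals the counts were 7 of 9 higher for the mevalonate list and 8 of 8 higher for the farnesyl list, with none lower in either. On that scale 60.6% of all genes were higher and 6.23% lower.

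Of 4 genes that supply methyl groups to *Coq3* and *Coq5*, 2 were lower and 1 was higher (median -0.21, and 0 lower and 3 higher on library totals). The shares of all genes were 21.1% lower and 23.6% higher, and on library totals 6.23% and 60.6%. *Slc25a26*, the carrier that brings S-adenosylmethionine into mitochondria, fell from 27.3 ± 1.76 to 16.5 ± 2.58 CPM (-0.72, adjusted p = 4.2e-04). *Mat2b*, a regulatory subunit of its synthase, was at -0.29 (adjusted p = 0.0078), and *Ahcy*, which clears the demethylated product, rose by 0.41 on the log2 scale (adjusted p = 0.0055).

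Downstream, 7 of 11 genes of enzymes that pass electrons to coenzyme Q were lower and 1 was higher, with a median of -0.57. All subunits of complex II in this list were among the lower genes, and they form a single enzyme. *Gpd2*, the glycerol 3-phosphate dehydrogenase of the inner membrane, fell from 421 ± 39.97 to 113 ± 38.3 CPM (-1.89, adjusted p = 4.3e-05). *Sqor*, the sulphide dehydrogenase, was at -1.46 (adjusted p = 2.4e-06), and *Sdha*, of complex II, at -0.88 (adjusted p = 1.9e-05). *Prodh*, the proline dehydrogenase, rose by 1.06 on the log2 scale (adjusted p = 6.0e-04). Complex III, which takes the electrons from coenzyme Q, had 7 of 9 nuclear genes lower and none higher (median -0.65), led by *Uqcrc1* (-0.94), *Uqcrfs1* (-0.83) and *Uqcr11* (-0.72). The genes of complexes II and III are also in the list of nuclear oxidative phosphorylation genes, so these lists are not separate results. On library totals 2 of the 11 were lower and 3 higher, and of the complex III genes none was lower and 2 were higher. Beside these counts, 21.1% of all genes were lower and 23.6% higher with TMM, and 6.23% and 60.6% on library totals.

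**Figure D5:**
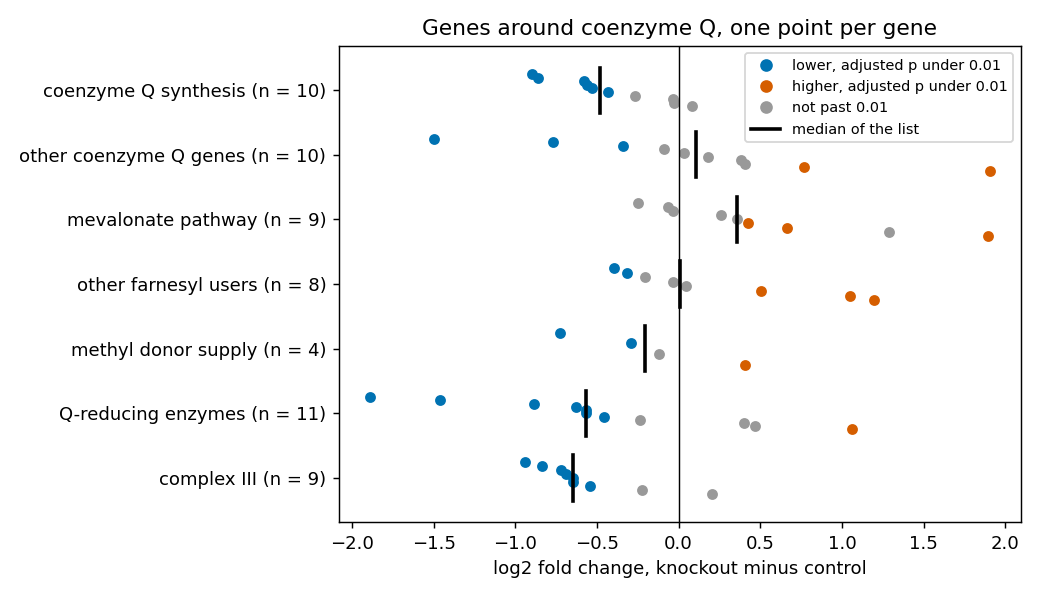
Log2 fold change on the TMM scale (horizontal axis) of each gene of 7 lists, from synthesis to use of coenzyme Q, with the median of a list as a bar. The row of other farnesyl users is the farnesyl list, which includes sterol genes that act later. Synthesis genes, Q-reducing enzymes and complex III have medians of -0.48, -0.57 and -0.65 and the mevalonate list one of 0.36; on library totals the lower calls shrink to 1, 2 and 0.

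Markers of other cells were counted on the TMM scale only, and their counts on library totals were not made. With TMM none of 6 adipocyte markers passed, their sum being 248 to 1459 CPM in control muscle and 685 to 2481 CPM in knockout muscle. Of 6 macrophage markers 1 was higher (sum 52.0 to 131 against 119 to 214 CPM), and of 4 satellite and Schwann cell markers 1 was higher (27.2 to 84.2 against 43.4 to 66.4 CPM). Endothelial markers were lower in 4 of 5 (243 to 360 against 175 to 196 CPM), as were 3 of 5 fibroblast markers (1292 to 1819 against 529 to 774 CPM). The muscle fibre markers were lower in 6 of 8 and higher in 1. Of all genes 21.1% were lower and 23.6% higher on this scale. Apart from the adipocyte covariate given for *Coq2*, the part of other cells in the coenzyme Q values was not tested.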

How the data were processed

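Raw counts per gene were deposited by the authors for 8 QF libraries, 1 per mouse, made from polyadenylated RNA with a strand-specific kit. Per the labels and the study's methods the authors converted reads with bcl2fastq 2.20.0.422, trimmed them with cutadapt, aligned them to GRCm38 with STAR 2.5.4b and counted them on exons after removing duplicate and multimapping reads. Genes with few reads are not in the table, the lowest holding 51 over all libraries. The deposited FPKM values, which the authors derived from these counts with the exon width, served only as an alternative for levels. The deposited columns of the authors' own DESeq2 1.32.0 comparison (fold changes, standard errors and p-values) were not used. The release of the annotation and the use of strand in the counting are not given in the sources used here. Multimapping reads were left out, so genes with near-identical copies may be under-counted.

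Counts of all 14012 genes were tested with edgeR 4.0.16 (R 4.3.3, limma 3.58.1) by the quasi-likelihood test on TMM-scaled libraries with group as the only term, Benjamini-Hochberg adjustment over all genes and an adjusted p under 0.01. CPM are on TMM-scaled library sizes, log2 CPM used a prior count of 2, and intervals of fold changes are at 95%. Levels per length are CPM divided by the deposited exon width in kb. Single values were also compared by exact two-sided permutation over the 70 assignments of 4 against 4. DESeq2 1.42.0 was an alternative. The procedure was tested on simulated data. Each list was described by its counts and median, with no set test. p-values measure the spread between the mice as labelled.

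Every synthesis gene is named. Of the other lists *Coq8a*, *Coq8b* and *Coq10b* are named, with at most the 3 genes of largest change past the threshold in each direction, and of the marker lists only counts and sums. *Coq8a*, *Coq8b* and *Sqor* were matched through their older symbols, as were some unnamed genes of the lists, among them the ATP synthase genes. The listed gene *Choldh* was not analysed here. The values of 1 gene that this rule names are not reported here. The genes and lists were chosen with earlier results of these data known. Alternatives covered scaling, filters, dispersion, threshold, the test, the replicate number as a block, adipocyte markers as a covariate, gene length and each library left out in turn.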

Additional observations from a re-analysis of the deposited data

Results flagged for a closer look

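There were 26 groups of 4 libraries (13 coenzyme Q genes in each of the control and knockout groups). In 2 of them a single value stood apart from the other 3 of its group by more than Dixon's 95% criterion. Chance flags about 1 in 20 groups. *Coq3* in control 4, at 24.8 CPM, was far below the other controls, and *Coq7* in control 2, at 52.1 CPM, was far above them. Control 4 had the lowest control value of 7 of the 10 synthesis genes and control 2 the highest of 6.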

How the results depend on the processing

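Library scaling changed more than any other choice tried. With library totals alone, log2 fold changes were 0.64 for *Pdss1*, 0.10 for *Pdss2*, 0.24 for *Coq2*, 0.41 for *Coq3*, 0.091 for *Coq5*, 0.63 for *Coq6*, 0.13 for *Coq7* and 0.59 for *Coq10b*, opposite in sign to TMM. With 1 synthesis gene lower (also by groups not overlapping) and 4 higher, 873 of all genes were lower and 8498 higher (9.32% of the called genes lower, against 47.3% with TMM). The lists then had, lower and higher, 1 and 8 (other coenzyme Q genes), 0 and 3 (ADCK), 0 and 7 (mevalonate), 0 and 8 (farnesyl list), 0 and 3 (methyl donors), 2 and 3 (Q-reducing enzymes), 0 and 2 (complex III) and 6 and 24 (oxidative phosphorylation). Scaled to the oxidative phosphorylation genes, *Pdss1* (0.49), *Coq2* (0.076), *Coq3* (0.25), *Coq6* (0.47) and *Coq10b* (0.43) turned positive. Synthesis genes were then 1 lower and 3 higher (2 lower by groups not overlapping) and all genes 1098 lower and 7162 higher (13.3% of called genes lower). The same lists had 1 and 5, 0 and 2, 0 and 7, 0 and 5, 0 and 1, 3 and 2, 2 and 2, and 14 and 13. *Pdss1* was at 0.0051 with upper-quartile factors and 0.0076 with at least 10 counts in every library, where *Coq6* was at 0.0011. With DESeq2, 1 ADCK gene was lower. Removing a trend with gene length put *Coq4* at -0.023, *Coq5* at -0.68 and *Coq9* at -1.02, with no test. Leaving out 1 library gave 6 to 7 synthesis genes lower and 0 higher, 2600 to 2937 of all genes lower and 2596 to 3005 higher. Log2 fold changes then ran from -0.11 to 0.012 for *Pdss1*, from -0.12 to 0.0040 for *Coq6* and from -0.059 to 0.14 for *Coq4*. Replicate numbers were not taken as pairs, since 1 of the 4 correlations of deviations of same-numbered mice was near 0 (0.12, 0.0031, 0.42 and 0.14), although 3 of 4 controls were closest to their own number. With a replicate block 6 synthesis genes were lower and 0 higher, and 2908 of all genes were lower and 3215 higher. Precision is limited by 4 mice per group, and by depth for *Pdss1* and *Coq4*.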
